A study of Mus musculus with 464 samples.

Results

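The cytosolic ribosome of the mouse is built from about as many proteins as there were genes in the group described here: 86 of the 21973 genes in the table carried a symbol of the cytosolic ribosomal protein families (symbols beginning Rpl or Rps with a number, Rplp0 to Rplp2, and Rpsa, without pseudogene symbols and without the Rps6k kinases). Of these, 77 were canonical ribosomal protein genes, 46 of the large and 31 of the small subunit. The other 9 were Rpl3l, Rpl7l1, Rpl10l, Rpl22l1, Rpl36al, Rpl39l, Rps27l and Rps27rt, which are paralogs or copies of canonical genes, and Rps19bp1, whose symbol has the same form but which encodes a regulator of the deacetylase SIRT1. Fau, which encodes a ribosomal protein as a fusion with a ubiquitin-like protein, has another symbol and stands outside the group, with a mean level of 1106 TPM.

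Full-length mRNA was sequenced from single cells of R1, a mouse embryonic stem cell line that had been kept with 15% Knockout Serum Replacement and 1000 U/ml LIF, a cytokine that holds stem cells undifferentiated. The cells were made into embryoid bodies, small aggregates, in hanging drops for 48 hours and then received retinoic acid, a vitamin A derivative, for 4 days, at a dose that the labels give as 0.5 mM. Cells were captured on a Fluidigm C1 chip and their cDNA was made with SMART-Seq V4 and Nextera XT, a chemistry without molecular identifiers. All samples carry this 1 label, with no untreated control and no named culture replicates, so cells were compared within 1 group and no p-value was computed.

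Ribosomal proteins bind ribosomal RNA in the nucleolus to form the large and the small subunit, and most of their genes are expressed in every cell. Their mRNAs begin with a short run of pyrimidines, the TOP (terminal oligopyrimidine) motif, through which the kinase mTOR and the protein Larp1 control their translation and stability. A few of the genes have paralogs with restricted expression, among them Rpl10l and Rpl39l, which in mice are best known from male germ cells, where the X-linked genes Rpl10 and Rpl39 are silenced.

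The coding sequences of the paralog pairs whose mean share differed most between the marker states described further on, Rpl39l with Rpl39 and Rps27l with Rps27, are shown from the GENCODE vM1 transcripts, with capitals at each base that differs between the members of a pair.
Rpl39l: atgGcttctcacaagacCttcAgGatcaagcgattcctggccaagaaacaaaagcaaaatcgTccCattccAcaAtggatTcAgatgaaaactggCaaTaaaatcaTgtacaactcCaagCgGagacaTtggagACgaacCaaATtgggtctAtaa
Rpl39: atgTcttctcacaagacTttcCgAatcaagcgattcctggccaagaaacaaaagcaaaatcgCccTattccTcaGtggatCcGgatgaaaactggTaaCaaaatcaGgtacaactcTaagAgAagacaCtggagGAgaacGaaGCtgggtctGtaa
Rps27l: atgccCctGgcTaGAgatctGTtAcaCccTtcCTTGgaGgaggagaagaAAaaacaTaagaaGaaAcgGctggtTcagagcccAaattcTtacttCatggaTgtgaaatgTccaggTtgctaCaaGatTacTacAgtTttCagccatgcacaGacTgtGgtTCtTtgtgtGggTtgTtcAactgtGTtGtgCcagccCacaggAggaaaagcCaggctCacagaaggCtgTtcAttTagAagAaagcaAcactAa
Rps27: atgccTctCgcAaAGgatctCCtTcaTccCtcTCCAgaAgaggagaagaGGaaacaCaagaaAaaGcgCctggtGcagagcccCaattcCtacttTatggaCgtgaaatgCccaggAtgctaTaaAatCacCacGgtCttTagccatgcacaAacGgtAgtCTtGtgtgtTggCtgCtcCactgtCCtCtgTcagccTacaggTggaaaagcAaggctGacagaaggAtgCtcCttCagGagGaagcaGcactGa
Rpl39l and Rpl39 differed at 23 coding bases (identity 85.3%), and their longest identical stretch was 38 bases. Rps27l and Rps27 differed at 61 bases (identity 76.1%), with no identical stretch longer than 11 bases. Identity was 84.8% for Rpl10l with Rpl10, 87.9% for Rpl36al with Rpl36a, 66.9% for Rpl22l1 with Rpl22 and 50.3% for Rpl7l1 with Rpl7, counting gaps as differences, while Rps27rt was not compared. Rpl39, Rpl10 and Rpl36a lie on chromosome X, and Rpl39l, Rpl10l and Rpl36al on chromosomes 16, 12 and 12. The read length is not given in the sources used here, so the share of reads that could belong to either member of a pair is unknown.

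The 5′ ends of 3 genes at each end of the neuron comparison given further on are shown next, since TOP mRNAs are a class defined by their first bases. Each line holds 30 bases of assembly GRCm38.p6, read 5′ to 3′ on the gene's strand, from 10 bases before to 20 bases from a RefSeq transcript start, and capitals mark a C followed by at least 5 letters that are each C or T. Rpl12, Rps2 and Rpl5 are from the low end, and Rps27, which lies on the minus strand, Rpl27 and Rpl37a are from the high end.
Rpl12, chr2:32961702-32961731: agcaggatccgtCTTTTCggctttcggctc
Rps2, chr17:24720053-24720082: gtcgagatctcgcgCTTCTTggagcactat
Rpl5, chr5:107900518-107900547: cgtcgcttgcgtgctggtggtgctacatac
Rps27, chr3:90213629-90213658: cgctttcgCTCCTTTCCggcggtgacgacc
Rpl27, chr11:101442235-101442264: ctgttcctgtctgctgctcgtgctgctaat
Rpl37a, chr1:72711250-72711279: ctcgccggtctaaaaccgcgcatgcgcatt
Such a run, searched on the gene's strand only, was found in 33 of the 57 canonical members with a sequence (57.9%), in 18 of 69 mitochondrial ribosomal protein genes (26.1%) and in 6735 of all 27025 genes (24.9%). Genes with several listed starts were counted when any of them held a run. The start shown is the outermost start of the gene for Rpl12, Rps27, Rpl27 and Rpl37a, whereas it lies 20 bases inside the gene for Rpl5 and 1942 bases inside for Rps2, where RefSeq also has a more distant start. Of the 57 canonical members, 49 had a listed start at the outermost position. The start used in these cells may differ from those annotated.

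Columns of the table with fewer than 2000 genes above 0 or more than 20% of their total from mitochondrially encoded genes were removed (6 columns). Among the rest, 55 pairs of columns that were each other's best match passed a limit of 0.93, with correlations of 0.946 to 0.990. The highest correlation under that limit was 0.917. Matches beyond mutual best pairs were not searched. Each pair was averaged as a repeat of the same cell, and the cells that result are called distinct cells. The columns fall into 2 sets by name, which share the 55 repeats, so values within the sets are not independent of each other. TPM, a transcript's share corrected for its length on a scale with a fixed total per cell, keeps no sequencing depth, so depth per cell is unknown. Distinct cells had 2059 to 10256 genes above 0 (median 6779), and the listed genes held 57.1% to 95.1% of the full TPM scale per column. In 2 cells, 1 or more members stood at least 2 times above the next highest cell. A cell with 2060 genes above 0, in no marker state, held such values of Rpl10a, Rpl13a, Rpl22l1, Rpl5 and Rps21, and a neuron cell with 4714 genes above 0 held those of Rpl15 and Rpl36al.

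A cell was placed in a marker state when enough genes of a list were at 10 TPM or more. The endoderm state needed 5 of 10 extraembryonic endoderm genes (among them Gata4, Sox17 and Dab2), the neuron state 6 of 10 neuron genes (among them Tubb3, Dcx and Stmn2), and the progenitor state 4 of 8 neural progenitor genes (among them Sox1, Sox2 and Pax6). These rules put 66 cells (16.4%) in the endoderm state, 61 (15.1%) in the neuron state and 38.5% of the distinct cells in the progenitor state. Another 56 cells met both neural lists, 32 met the endoderm list and a neural one, and 33 met none, and these 3 sets enter no comparison. The summed level of the endoderm list had a median of 981 TPM in endoderm cells, 5.81 TPM in neuron cells and 39.2 TPM in progenitor cells. The neuron list had medians of 11.9 TPM in endoderm cells, 2919.9 TPM in neuron cells and 151.9 TPM in progenitor cells, and the progenitor list 2.29, 62.1 and 653 TPM in the same order. Many cells lay near the limits: 28 of all cells had exactly the minimum of neuron markers and 23 were 1 marker short, 11 and 4 for endoderm markers, and 63 and 37 for progenitor markers. Pluripotency, mesenchyme, blood and glia lists had medians of at most 20.99 TPM in each state. The epithelium list had a median of 957 TPM in endoderm cells, 0 in neuron cells and 0.73 TPM in progenitor cells, while Krt5, Krt14 and Trp63, markers of stratified epithelium, were at 0 in endoderm and neuron cells.

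Ribosomal protein mRNA was one of the most abundant classes in these cells. The 77 canonical members together held 10.2% ± 2.31 of the full TPM scale (SD over distinct cells), with the lowest cell at 2.66% and the highest at 18.3%. Of the 77, 50 were among the 200 genes with the highest mean level. On a scale corrected for length the mean levels of the members differed widely, although 1 ribosome holds 1 copy of nearly every one of these proteins. Rpl41, which encodes the smallest ribosomal protein, had a mean of 3767 TPM, Rps25 had 3391 TPM, and Rpl29 had 99.7 TPM, the lowest of all canonical members. Above Rpl29 at the low end came Rps3a1 at 318.1 TPM and Rpl12 at 358.1 TPM. The median over members was 1003 TPM for the large subunit and 1274 TPM for the small one. At 1 TPM or more, 39 members were detected in each distinct cell, and no canonical member was detected in fewer than 98.8% of them.

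**Figure D1:**
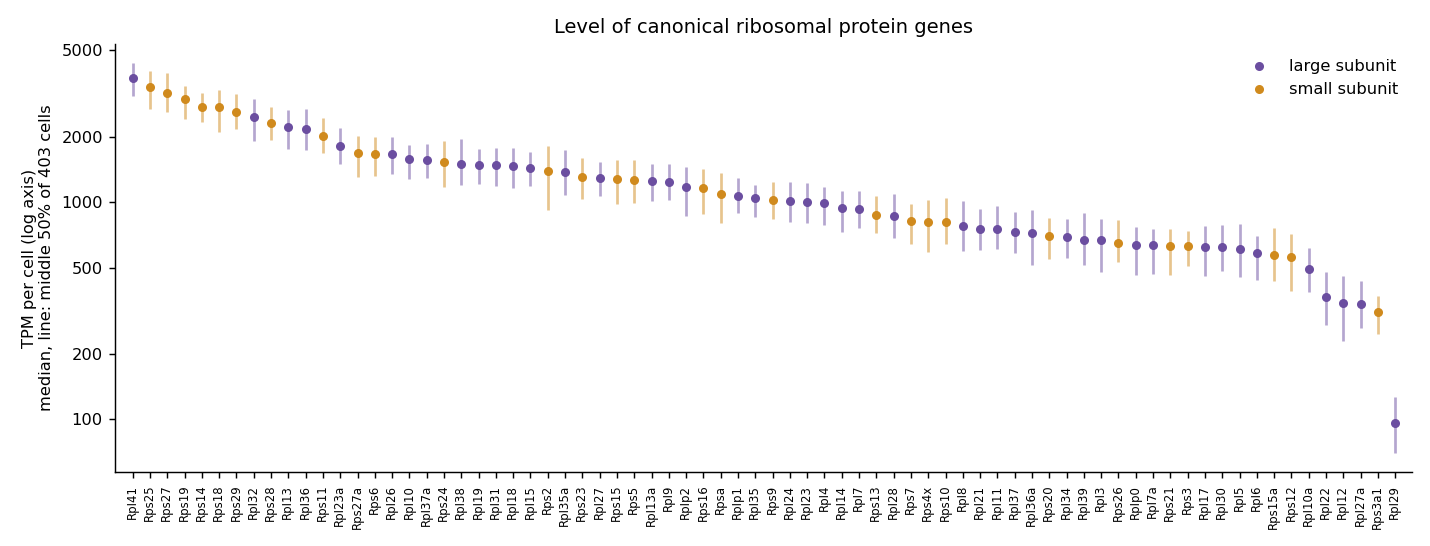
Level of 74 of the 77 canonical members over the distinct cells, ordered by the median. The y axis is TPM per cell on a log axis, points are medians, lines span the middle 50% of cells, and colours give the subunit. Rpl41 and Rps25 are at the high end and Rpl29, whose mean was 99.7 TPM, stands apart at the low end.

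The 55 repeat pairs were found from their correlation alone, and whether they hold separate libraries of a cell or the same library sequenced again is not given in the sources used here. Within pairs the summed level differed by a median of 0.01 on the log2 scale and by 0.06 at most. Single members were noisier, with a median difference within pairs of 0.11 on the log2 scale.

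The sum of the canonical members was lowest in neuron cells and highest in progenitor cells. It was 9.34% ± 2.58 of the full TPM scale in endoderm cells (SD over 66 cells), 7.98% ± 1.57 in neuron cells (61 cells) and 11.5% ± 1.72 in progenitor cells. Endoderm cells ran from 4.56% to 18.3% with a median of 8.77%, neuron cells from 5.15% to 11.9% with a median of 7.91%, and progenitor cells from 7.36% to 16.5% with a median of 11.3%. The 3 ranges overlap, but 51 of 66 endoderm cells and 58 of 61 neuron cells lay below the progenitor median. Below the lowest progenitor cell lay 12 endoderm and 22 neuron cells. Of the 66 endoderm cells, 19 lay below the neuron median. The 56 cells that met both neural lists averaged 10.3% ± 1.78, and the 32 cells with endoderm and neural markers averaged 9.49% ± 1.68.

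**Figure D2:**
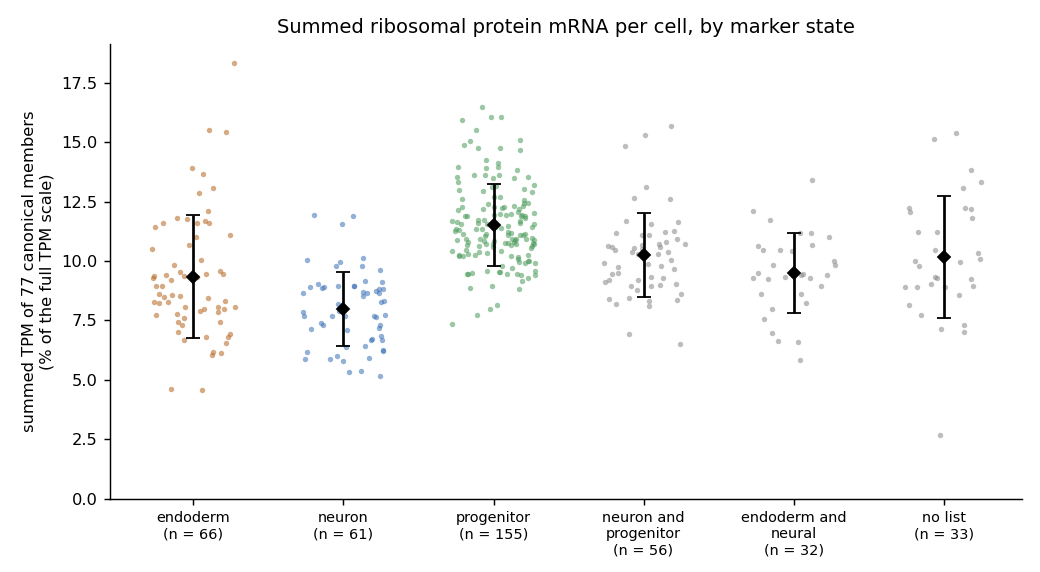
Summed TPM of the 77 canonical members in each distinct cell, as a percentage of the full TPM scale (y axis), by marker state (x axis). Each point is 1 cell, and diamonds with bars are the mean ± SD over cells. The neuron cells average 7.98% and the progenitor cells 11.5%, and the ranges overlap.

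The ratio of the mean sums was 0.69 for neuron over progenitor cells, with 0.69 and 0.72 within column sets 1 and 2. It was 0.81 for endoderm over progenitor cells (0.84 and 0.81 within the sets) and 1.17 for endoderm over neuron cells (1.22 and 1.13). Set 1 columns had the higher mean sum in each state: 9.97% against 8.82% in endoderm cells, 8.19% against 7.83% in neuron cells and 11.9% against 10.9% in progenitor cells. TPM is a share, so fewer ribosomal protein transcripts and more of other transcripts in a cell cannot be told apart. Endoderm, neuron and progenitor cells had medians of 6340.5, 6565 and 6812 genes above 0, and mitochondrially encoded genes held medians of 6.04%, 7.58% and 6.36% of their totals. Among cells with 5500 to 8500 genes the ratios of sums were 0.72 for neuron over progenitor, 0.82 for endoderm over progenitor and 1.14 for endoderm over neuron cells, and the part of the mitochondrially encoded share was not tested. The 3 ratios move with the scale: rescaling each cell by broadly detected genes outside the group raised the median log2 ratio of all genes by 0.12, 0.29 and 0.17 in the comparisons of neuron with progenitor, endoderm with progenitor and endoderm with neuron cells. On that scale the ratios of sums were 0.76, 0.99 and 1.30, so the endoderm sum was no longer lower than the progenitor sum by more than 1%.

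Among cells under the endoderm minimum, the sum was lower with each step in the number of neuron markers. It averaged 11.7% ± 2.34 in the 55 cells with 0 or 1 marker, 11.3% ± 1.73 in 86 cells with 2 or 3, 10.7% ± 1.74 in 47 cells with 4 or 5, 10.1% ± 2.11 in 39 cells with 6 or 7, 9.01% ± 1.76 in 46 cells with 8 or 9 and 7.87% ± 1.54 in the 32 cells with all 10 (SD over cells). Rps2, a protein of the small subunit near the channel where mRNA enters, had medians of 1784, 1748, 1600.5, 1293, 995 and 689 TPM over the same steps. Rpl12, which sits at the base of the stalk where elongation factors bind, had medians of 457.9, 396.6, 365.02, 310.7, 236.3 and 187.04 TPM. Both genes thus followed the sum, and their spread between the first and last step was wider than that of the sum. They are the 2 canonical members with the lowest ratios of neuron over progenitor cells, as given further on. The steps hold many of the same cells, so the wider spread follows from that choice. The number of genes above 0 had medians of 6169, 6797, 6716, 6977, 7174 and 7269 over these steps, higher in the last than in the first. The median number of progenitor markers was 5 in the first step and 2 in the last.

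**Figure D3:**
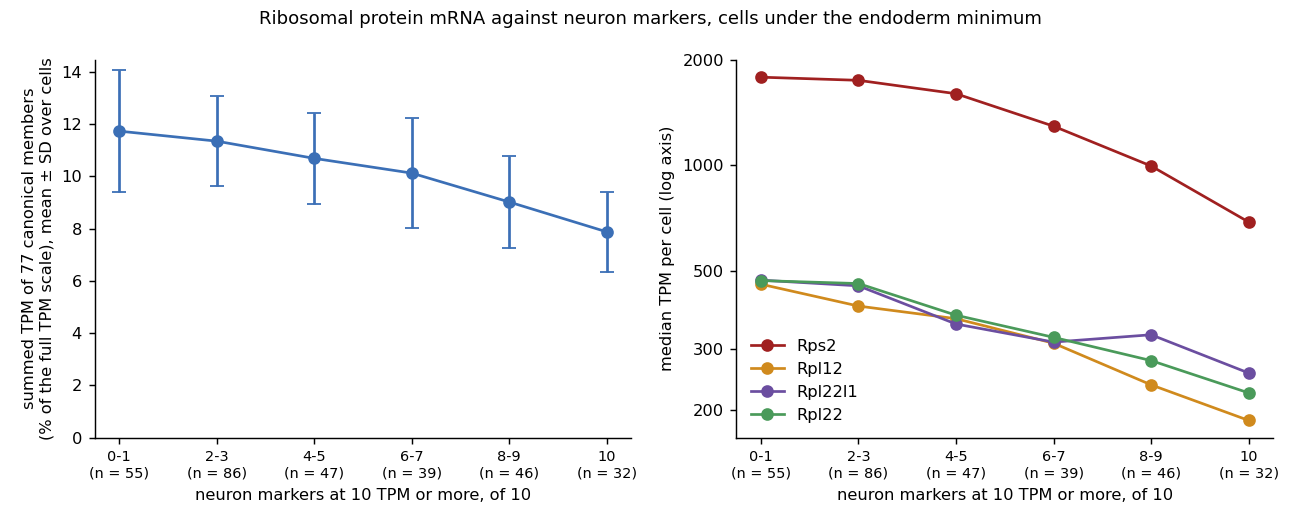
Ribosomal protein mRNA against the number of neuron markers at 10 TPM or more (x axis, with the number of cells), in cells under the endoderm minimum. The left panel shows the mean ± SD over cells of the summed canonical members, which is 11.7% of the full TPM scale at 0 or 1 marker and 7.87% at 10. The right panel shows median TPM (log axis) of Rps2, Rpl12, Rpl22l1 and Rpl22, each lower at 10 markers than at 0 or 1.

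In neuron cells, every canonical member had a lower mean than in progenitor cells, in all cells and within both column sets. On the scale of broadly detected genes 1 of the 77, Rpl27a, lay above 1, at 1.03. Its highest value, 1493.9 TPM against 1000.3 TPM in the next cell, lay in the neuron cell with 4714 genes above 0 that also held the highest Rpl15 and Rpl36al. The part of that cell in the values on this scale was not tested. A gene was called when its mean TPM differed by at least 1.5-fold in the distinct cells and in the same direction by at least 1.5-fold within each set. By that rule 22 of the 77 fell in neuron cells and 0 rose, where 15.9% of all 8361 genes tested (mean of 5 TPM or more) fell and 13.2% rose. The median log2 ratio was -0.55 over the canonical members and -0.03 over all genes tested. Of all 8361 genes tested, 4293 had a ratio below 1 in the distinct cells. The call was made for 12 of 46 members of the large subunit and 10 of 31 of the small one. Both subunits had nearly the same median ratio, 0.68 each.

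Rpl12 and Rps2 stood apart from the other members at the low end. Rpl12 averaged 188.5 ± 94.6 TPM in neuron cells and 435.7 ± 170.1 TPM in progenitor cells (SD over cells), a ratio of 0.43. Its neuron cells ran from 34.2 to 514 TPM with a median of 187.2 TPM, and its progenitor cells from 80.5 to 1071 TPM with a median of 393.3 TPM. Rps2 averaged 790.5 ± 367.95 TPM in neuron cells and 1809.9 ± 504 TPM in progenitor cells, a ratio of 0.44. Its neuron cells ran from 111.97 to 1678 TPM with a median of 685 TPM, below the lowest progenitor cell, which had 758 TPM, and its progenitor cells reached 4134 TPM with a median of 1771 TPM. The ranges of both genes overlap between the states, and both genes kept ratios of 0.44 to 0.45 within each column set.

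The next 6 members had ratios of 0.54 to 0.59. Rpl5, which binds 5S ribosomal RNA and, outside the ribosome, the p53 ligase Mdm2, averaged 425.6 ± 144.5 TPM in neuron cells and 782 ± 242.7 TPM in progenitor cells, a ratio of 0.54. Rpl36a had a ratio of 0.56. Rpsa, which is also known as a laminin receptor, had a ratio of 0.57, at 770.3 ± 232.4 TPM in neuron cells and 1344 ± 386.4 TPM in progenitor cells. Rpl3, which reaches toward the site of peptide bond formation, had a ratio of 0.58, and Rps18 and Rps16 of the small subunit had 0.59 each. Among the other canonical members that fell were Rpl39, Rpl17, Rpl22, Rps25, Rplp0, Rps27a, Rps15, Rpl18, Rpl11, Rps10, Rpl14 and Rpl4, with ratios of 0.60 to 0.64. Without the neuron cell that stands apart, Rpl18, Rpl39, Rpl4 and Rps27a missed the rule, with set 1 ratios of 0.67 each, and Rpl35a, Rpl38 and Rplp2 met it.

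At the other end, Rps27 had the highest ratio, 0.89, at 3089.97 ± 954 TPM in neuron cells and 3463 ± 982 TPM in progenitor cells. Rpl27, Rpl37a, Rpl13a, Rpl7, Rps7 and Rpl37 had ratios of 0.79 to 0.84, and none of these 7 was called. The median ratio was 0.68 over the 33 members with a pyrimidine run at an annotated start and 0.67 over the 24 without one. Annotated starts may differ from those used in these cells. Members without a run are therefore not known to lack a TOP motif, and these medians cannot tell whether the motif matters.

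**Figure D4:**
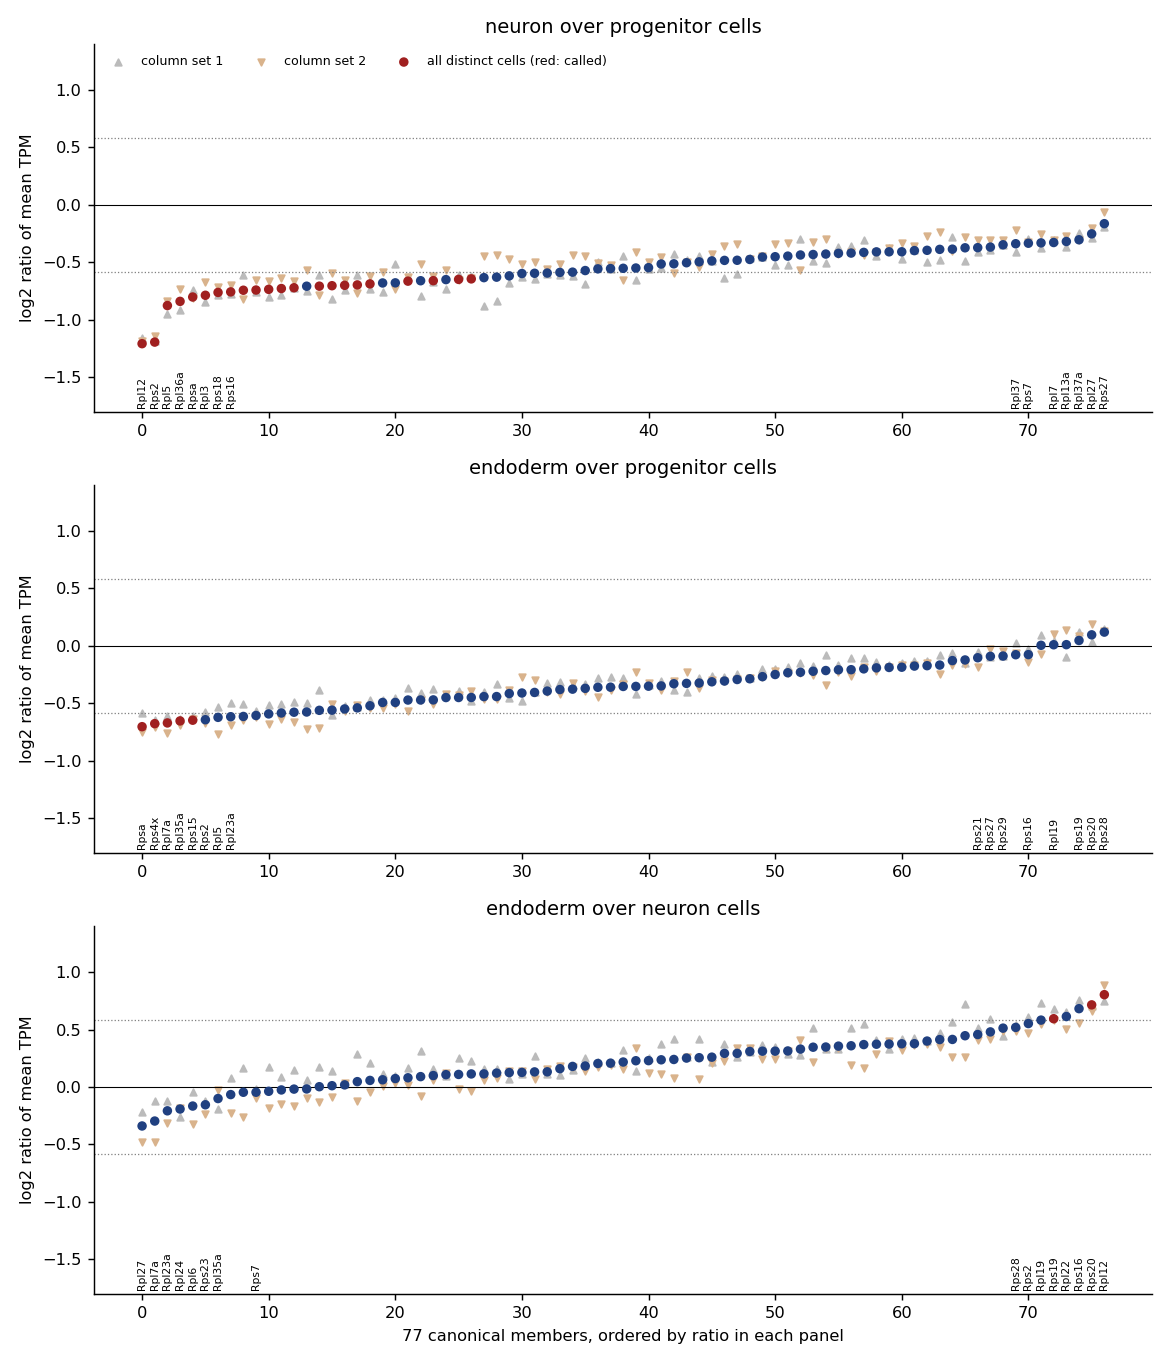
Ratio of mean TPM (log2, y axis) of each of the 77 canonical members in the 3 comparisons, ordered within each panel. Circles are all distinct cells, red where the gene was called, triangles are column sets 1 and 2, and dotted lines mark 1.5-fold. On the deposited scale shown, all members lie below 0 in the first panel (76 of 77 on the scale of broadly detected genes) and Rpl12 and Rps2 lie lowest, 6 lie above 0 in the second (28 on the other scale) and 63 in the third (72 on the other scale).

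In endoderm cells, most canonical members had lower means than in progenitor cells, but few passed the rule. Of the 77, 5 fell and 0 rose, where 29.1% of all genes tested fell and 18.3% rose. A ratio below 1 was found for 71 of the 77 and for 5131 of all 8361 genes tested. The median log2 ratio was -0.35 over the canonical members and -0.27 over all genes tested. The members that fell were Rpsa (0.61), the X-linked Rps4x (0.63), Rpl7a (0.63), Rpl35a (0.64) and Rps15 (0.64). Rpsa averaged 825 ± 367.2 TPM in endoderm cells and 1344 ± 386.4 TPM in progenitor cells. Its endoderm cells ran from 179.3 to 2074 TPM with a median of 794 TPM, and its progenitor cells from 549.7 to 3358 TPM with a median of 1332 TPM, so that the ranges overlap widely. Rps4x averaged 611 ± 289.1 TPM in endoderm cells and 977 ± 258.6 TPM in progenitor cells. Rps2, Rpl5 and Rpl23a had ratios of 0.64 to 0.65 and missed the rule in 1 column set.

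At the high end of this comparison, 3 of 46 members of the large and 3 of 31 of the small subunit had a ratio above 1. Among those with the same direction in both column sets, Rps28 had a ratio of 1.09, Rps20 of 1.07, Rps19, which is mutated in Diamond-Blackfan anaemia in humans, of 1.03 and Rpl19 of 1.01, and Rps16, Rps29, Rps27 and Rps21 had 0.93 to 0.95. Rps28 averaged 2713 ± 741 TPM in endoderm cells and 2496 ± 598 TPM in progenitor cells. None of the 8 was called. On the scale of broadly detected genes, 28 members were above 1 and 49 below, and no canonical member was called in this comparison. The median ratio on that scale was 0.95 over the canonical members and 1.02 over all genes tested.

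Set against neuron cells, endoderm cells had higher means for 63 of the 77 canonical members and lower means for 14. Of all 8361 genes tested, 3540 had higher and 4818 lower means. By the rule 3 rose and 0 fell, where 18.6% of all genes tested rose and 25.1% fell, and the median log2 ratio was 0.22 over the canonical members against -0.17 over all genes tested. Rpl12 rose 1.75-fold, at 329.05 ± 130.5 TPM in endoderm cells and 188.5 ± 94.6 TPM in neuron cells. Rps20 rose 1.64-fold, at 819.8 ± 295.9 TPM in endoderm cells and 499 ± 225.4 TPM in neuron cells. Rps19 rose 1.51-fold, at 3366 ± 1309 TPM in endoderm cells and 2229 ± 659 TPM in neuron cells, and it had 1.4960 without the neuron cell that stands apart, below the rule. Rps16, Rpl22, Rpl19, Rps2 and Rps28 had ratios of 1.43 to 1.60 and were not called. At the low end were Rpl27 (0.79), Rpl7a (0.81), Rpl23a (0.87), Rpl24 (0.88), Rpl6 (0.89), Rps23 (0.90), Rpl35a (0.93) and Rps7 (0.97), none of them called. The 3 comparisons share cells, so their orders of members are not independent of one another.

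Among the tested paralogs, Rpl39l, Rpl10l and Rps27l had the highest ratios of endoderm cells over each of the other states, whereas Rpl36al and Rps27rt were called in no comparison. Rpl39l, which like Rpl39 lines the exit tunnel of the large subunit, was detected at 1 TPM or more in 27 of 66 endoderm cells (40.9%, exact Clopper-Pearson 95% interval 28.95% to 53.7%), in 1 of 61 neuron cells (1.64%, 0.04% to 8.80%) and in 6 progenitor cells (3.87%, 1.43% to 8.23%). These intervals cover counting error only. Its mean was 95.5 ± 157.2 TPM in endoderm cells, 1.13 ± 8.80 TPM in neuron cells and 0.77 ± 5.60 TPM in progenitor cells, with highest cells at 712, 68.7 and 60.8 TPM. The median cell was at 0 in all 3 states, and 21 endoderm cells were at 100 TPM or more, against 0 neuron and 0 progenitor cells. Rpl39l was called higher in endoderm than in progenitor cells, with ratios of 89.6 and 563 within the column sets that rest on 6 progenitor cells, and also higher than in neuron cells, where set 1 listed it at 0. Its neuron and progenitor means were under the 5 TPM minimum for testing, which it passed through cells with endoderm markers, so a call could only be higher in endoderm cells. Of the pair Rpl39l and Rpl39, Rpl39l held 14.2% of the TPM in endoderm cells, 0.22% in neuron cells and 0.089% in progenitor cells. Among single endoderm cells its share had an SD of 17.8 percentage points and an upper quartile of 19.95%, and it passed 50% in 1 cell. Of the 56 cells with Rpl39l in the whole set, 43 had at least 5 endoderm markers on. The repeat columns agreed on its presence in 53 of 55 pairs, 7 with and 46 without it, and in the other 2 pairs it was at 4.45 TPM at most.

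Rpl10l was also detected most often in endoderm cells among the 3 states. It was detected in 37 of 66 endoderm cells (56.1%, 43.3% to 68.3%), 8 of 61 neuron cells (13.1%, 5.84% to 24.2%) and 23 progenitor cells (14.8%, 9.64% to 21.4%). Its mean was 54.9 ± 68.95 TPM in endoderm cells, 6.61 ± 22.6 TPM in neuron cells and 6.60 ± 25.4 TPM in progenitor cells. It rose 8.32-fold in endoderm over progenitor cells and 8.31-fold over neuron cells. Its share of Rpl10l plus Rpl10 was 3.19% in endoderm cells, 0.53% in neuron cells and 0.40% in progenitor cells, so Rpl10 remained the main transcript, at 1667, 1251 and 1661 TPM in the same order. Both paralogs were detected in 19 endoderm cells, Rpl39l alone in 8, Rpl10l alone in 18 and neither in 21.

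Within endoderm cells, detection of the paralogs was set against the 6 endoderm markers that were off in at least 11 cells (Gata6, Sox7, Foxa2, Cubn, Amn and Ttr). Rpl39l was detected in 35% (Cubn) to 46.2% (Amn) of the cells with a marker on, and in 39.6% (Amn) to 52.4% (Ttr) of those with it off. Rpl10l was detected more often with the marker on for Foxa2 (61.8% on, 27.3% off), Sox7 (68.97% on, 45.9% off) and Amn (69.2% on, 52.8% off). It was detected less often with the marker on for Cubn (30% on, 67.4% off), Ttr (48.9% on, 71.4% off) and Gata6 (48.8% on, 68% off). With 11 to 55 cells on each side, these shares are given as a description only. Along the number of endoderm markers, in cells under the neuron minimum, Rpl39l was detected in 4.44% of 45 cells with 0 markers, 4.10% of those with 1, 4.76% of 21 with 2 to 4, 48.6% of 35 with 5 or 6 and 40% of 50 with 7 or more. Detection of Rpl10l was 4.44%, 16.4%, 23.8%, 48.6% and 58% over the same steps.

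**Figure D5:**
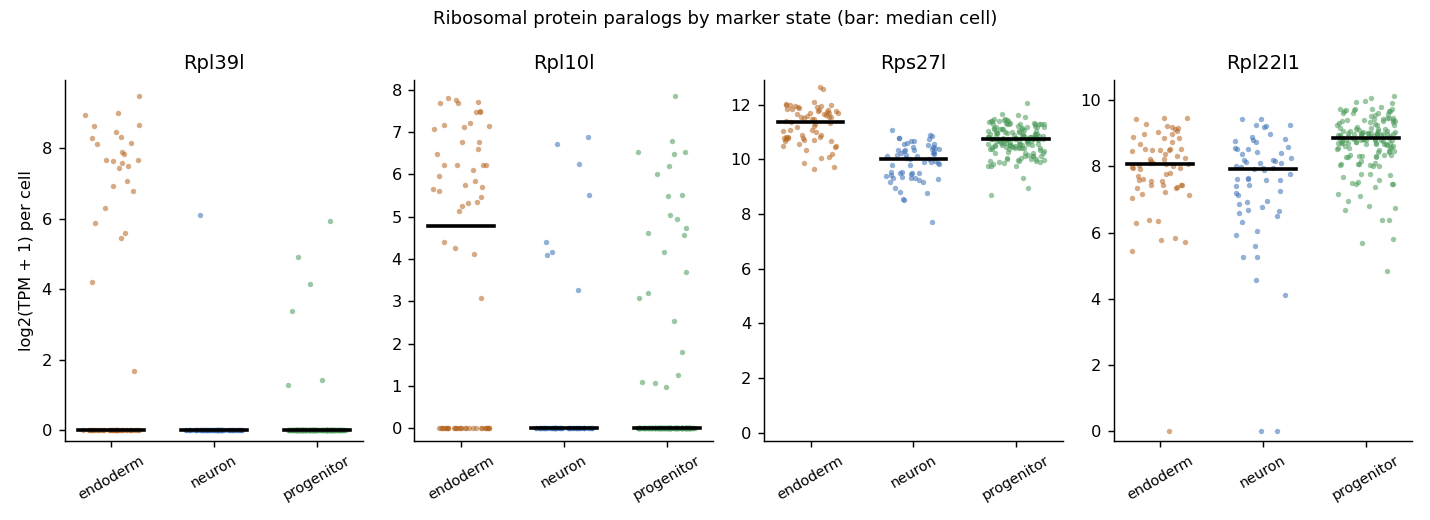
Level of Rpl39l, Rpl10l, Rps27l and Rpl22l1 as log2(TPM + 1) in each cell (y axis) by marker state (x axis). Each point is 1 cell, bars are medians. Rpl39l is detected in 27 of 66 endoderm cells, 1 of 61 neuron cells and 6 progenitor cells, whereas Rps27l is detected in each cell shown.

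Rps27l, a paralog of the small subunit protein Rps27 that is known as a target of p53, was abundant in each state and differed in level. It averaged 2682 ± 1179 TPM in endoderm cells, 1052 ± 438.8 TPM in neuron cells and 1759 ± 593 TPM in progenitor cells. Endoderm cells ran from 797 to 6478 TPM with a median of 2651 TPM, neuron cells from 208.1 to 2151 TPM with a median of 1031 TPM, and progenitor cells from 415.5 to 4233 TPM with a median of 1714 TPM. It rose 2.55-fold in endoderm over neuron cells and fell in neuron cells to 0.60 of the progenitor level. Endoderm over progenitor cells had a ratio of 1.52, with 1.62 and 1.49 within the sets, and so missed the rule narrowly. Rps27 itself was not called in any comparison, at 3252, 3089.97 and 3463 TPM in endoderm, neuron and progenitor cells. Rps27l therefore held 45.2% of the pair in endoderm cells, 25.4% in neuron cells and 33.7% in progenitor cells, with 45.1%, 23.2% and 32.2% in set 1 and 45.8%, 27.1% and 35.7% in set 2. The SD of the Rps27l share over cells was 14.2, 8.60 and 9.34 percentage points in the same order of states. It was the larger partner in 23 of 66 endoderm cells, 0 of 61 neuron cells and 6 progenitor cells.

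Rpl22l1, the paralog of the RNA-binding large subunit protein Rpl22, fell in neuron cells to 0.54 of the progenitor level, as Rpl22 did at 0.60. Rpl22l1 averaged 302.02 ± 176.6 TPM in endoderm cells, 257.3 ± 178.5 TPM in neuron cells and 476 ± 220.7 TPM in progenitor cells, and Rpl22 averaged 414.07 ± 184.1, 270.6 ± 149.6 and 450.7 ± 155.96 TPM in the same order. The share of Rpl22l1 in the pair was 42.2%, 48.7% and 51.4%, and its SD over cells was 19.05, 21.96 and 14.3 percentage points, so the shares differed by less than the spread between cells. Rpl36al was not called in any comparison, and at 1097 ± 352.2 TPM in endoderm cells, 949.5 ± 1630.2 TPM in neuron cells and 1137 ± 399.8 TPM in progenitor cells it exceeded Rpl36a in most cells. Without the 1 neuron cell at 13300.0 TPM the neuron mean was 744 TPM and its ratio to progenitor cells 0.65 in place of 0.84, still not called, with 0.62 and 0.70 within the sets. The share of Rpl36al in the pair was 63.1% in endoderm cells, 65.7% in neuron cells (59.7% without that cell) and 56.1% in progenitor cells. On the scale of broadly detected genes, with that cell included, the Rpl36al ratio of neuron over progenitor cells was 1.55. Its neuron share was 76.7% there, and it was again not called in that comparison. The part of that cell on this scale was not tested.

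The remaining symbols were low. Rpl7l1, whose yeast homolog works in the assembly of the large subunit, fell in neuron cells to 0.50 of the progenitor level, at 66.7 TPM in endoderm cells, 45.3 TPM in neuron cells and 90.6 TPM in progenitor cells. Rps19bp1 fell in neuron cells to 0.60, at 77.99, 60.8 and 100.9 TPM in the same order. Rps27rt, a copy of Rps27 on chromosome 9, was at 31.3, 27.7 and 31.2 TPM, but its repeat columns differed by a median of 1.36 on the log2 scale and only 40 of 55 pairs detected it in both columns, so its level is uncertain. Rpl3l, known from heart and skeletal muscle, was detected in 3 cells and was under the 5 TPM minimum for testing. No member was at 0 in all cells.

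Genes that serve the ribosome in other ways did not all move with its proteins. Of 21 ribosome biogenesis genes tested, 14 fell in neuron over progenitor cells and 0 rose, with a median log2 ratio of -0.89, against 22 of 77 and -0.55 for the canonical members and 15.9% and -0.03 for all genes tested. Of 19 translation factors and other TOP mRNAs, 4 fell and 0 rose, with a median of -0.37. Among them were Npm1, a nucleolar chaperone, at 0.45, and Eef1d, an elongation factor subunit, at 0.28, whereas Tpt1, a classical TOP mRNA, had 0.995, Eef1a1 0.89 and Fau 0.85. Of 78 mitochondrial ribosomal protein genes, 5 fell and 0 rose, with a median of -0.27. Of 8 growth regulators 3 fell and 0 rose: Myc (0.26), Mycn (0.40) and Eif4ebp1 (0.24), an mTOR target. Of 12 cell cycle genes 11 fell.

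In endoderm over progenitor cells, where 29.1% of all genes tested fell and 18.3% rose with a median log2 ratio of -0.27, 2 of the 21 biogenesis genes fell and 0 rose, with a median log2 ratio of -0.45, while 2 of the 19 translation factors and TOP mRNAs fell and 1 rose (median -0.30). Mitochondrial ribosomal protein genes had 14 of 78 lower and 2 higher (median -0.36), and all 12 cell cycle genes fell. Of the growth regulators, 4 of 8 fell, among them Myc (0.32) and Mycn (0.54), and 1 rose. In endoderm over neuron cells, where 18.6% of all genes tested rose and 25.1% fell, 3 biogenesis genes rose and 0 fell (median 0.43), 6 mitochondrial ribosomal protein genes rose and 4 fell (median -0.06), and the cell cycle genes had 3 of 12 higher and 3 lower. Of the 8 growth regulators there, Eif4ebp1 rose 3.77-fold and Mycl, a member of the Myc family, fell to 0.11 of the neuron level, at 2.36 TPM in endoderm cells and 22.4 TPM in neuron cells. The cell cycle genes moved with the state in both comparisons against progenitor cells, and their part in the ribosomal protein levels was not tested.

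Across cells, the members varied together. The Spearman correlation of a canonical member with the sum of the others had a median over members of 0.68 in endoderm cells, 0.57 in neuron cells, 0.55 in progenitor cells and 0.67 over all distinct cells. These values share the scaling of each cell and are a description only. Over all cells the lowest was 0.45 for Rpl13a and the highest 0.83 for Rpl41. The summed level had a correlation of 0.50 with the summed biogenesis genes in endoderm cells, -0.13 in neuron cells and 0.04 in progenitor cells, and of 0.35 with the total TPM of the listed genes over all cells. Its correlation with the number of genes above 0 was 0.09 in endoderm cells, 0.32 in neuron cells, -0.02 in progenitor cells and 0.10 over all cells. With the summed cell cycle genes it was 0.11 in endoderm cells, 0.40 in neuron cells, -0.17 in progenitor cells and 0.37 over all cells. The 10 genes outside the group whose level followed the sum most closely over the distinct cells were Npm1 (0.69), Gm2000 (0.62), Mif (0.61), Naca (0.60), Gm10036 (0.59), Snrpf (0.59), Gapdh (0.58), Slc2a1 (0.57), Lsm7 (0.55) and Hspe1 (0.55). RefSeq lists Gm2000 and Gm10036 as pseudogenes.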

How the data were processed

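The authors deposited 1 table of expression values for single cells, with no unit named. The values were taken to be TPM because RSEM, which the submitters' processing notes name with STAR and the build mm10 (no versions), gives that unit and the values of a column never sum to more than the TPM total of 1000000. No source used here names the gene annotation. The header line ran on into the first gene's row and was split there. Column names match no sample title, but all 464 samples share 1 group.

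Of 464 columns, the 458 with at least 2000 genes above 0 and a mitochondrial share of at most 20% were kept (224 in column set 1, 234 in set 2), and mutual best pairs (55) whose log2(TPM + 1) correlated at 0.93 or more were averaged to give 403 distinct cells, of which 66 were in the endoderm, 61 in the neuron and 155 in the progenitor state. Doublets were not called, and cells that met 2 marker lists entered no comparison. Ratios are of mean TPM without a pseudocount, over genes with a mean of at least 5 TPM, and a call needs 1.5-fold in all distinct cells and in both column sets. Named canonical members are the 8 at each end of each comparison (mean of at least 10 TPM, same direction in both sets) and the 3 most and 3 least abundant; those called besides and all other members are also named, except that the values of a few genes are not reported here. The members and lists were chosen with earlier results of these data known. The pairs with Rpl10, Rpl7 and Rps27rt and the list of p53 targets were added after their values were seen. Shares of cells have exact Clopper-Pearson 95% intervals. Calls, repeat search and states were tested on simulated data. The software was Python 3.11.15 with numpy 2.4.6, pandas 2.3.3, scipy 1.17.1 and Biopython 1.88. Gene positions and starts came from RefSeq (GRCm38.p6), coding sequences from GENCODE vM1. Alternatives covered repeat columns, column set, scale, marker limits, gene number, fold, filter and pseudocount.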

Additional observations from a re-analysis of the deposited data

How the results depend on the processing

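Over 14 alternatives the ratios of sums were 0.675 to 0.762 for neuron over progenitor, 0.777 to 0.991 for endoderm over progenitor and 1.11 to 1.30 for endoderm over neuron cells, and none crossed 1. The share of Rps27l ran from 44.4% to 47.04% in endoderm, 23.2% to 27.1% in neuron and 32.2% to 35.7% in progenitor cells. That of Rpl36al in neuron cells ran more widely, from 56.7% to 76.7%. The share of Rpl39l in endoderm cells was at most 15.6%, and 0% with the median cell in place of the mean. Counts of members past the fold moved more. They are drawn from all 86 members, paralogs and Rps19bp1 included. With the settings used above, 22, 5 and 3 of those counted in the 3 comparisons were canonical. Of all genes tested, 15.9% fell and 13.2% rose in neuron over progenitor cells. In endoderm over progenitor cells 29.1% fell and 18.3% rose, and in endoderm over neuron cells 25.1% fell and 18.6% rose. Such shares were not computed for the alternatives, so the counts there have no background beside them. For neuron over progenitor cells, 26 members (all lower) became 43 in column set 1 alone, 10 on the scale of broadly detected genes, 7 with markers on at 20 TPM, 9 with 1 more marker needed, 15 in cells with 5500 to 8500 genes and 2 at 2-fold. For endoderm over progenitor cells, 7 members (2 higher, 5 lower) became 18 in column set 2 alone, 14 with markers on at 1 TPM, 12 with 1 fewer marker needed and 13 on mean log2(TPM + 1). The 2 higher members were the paralogs Rpl39l, which could only be called higher, and Rpl10l, and the 5 lower ones were canonical. Higher calls outnumbered lower ones in 4 settings, where few or no lower calls were left. These were 3 higher and 0 lower on the scale of broadly detected genes and 2 higher and 0 lower at 2-fold, with no canonical member among them. With markers on at 20 TPM 2 were higher and 0 lower, and with 1 more marker needed 3 were higher and 1 lower. For endoderm over neuron cells, 6 members (all higher) became 13 in column set 1 alone, 13 on the broad scale, 3 with 1 more marker needed and 3 at 2-fold. A column set alone also drops the need to pass in both sets, and dropping that need with all cells kept gave 39, 15 and 8 members in the 3 comparisons. For the other settings except the higher fold, the cause was not tested. Leaving out the 2 cells that stand apart, an alternative added after seeing the data, gave 25, 7 and 5 members. No paired analysis was possible because all samples share 1 group. Depth is unknown, so values near 0 cannot be told from absence.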

Other observations

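Because Rps27l is known as a p53 target, 10 other p53 targets were examined after its values had been seen, of which 7 were tested. In endoderm over progenitor cells 5 of the 7 rose and 0 fell, where 18.3% of all genes tested rose and 29.1% fell: Cdkn1a, a cell cycle inhibitor, 7.37-fold (246.01 against 33.4 TPM), Phlda3 3.96-fold, Eda2r 3.75-fold, Ccng1 2.61-fold and Bax, a cell death protein, 1.86-fold. In neuron over progenitor cells, where 13.2% of all genes tested rose, Cdkn1a rose 5.93-fold and no other of the 7 was called, while Rps27l fell to 0.60. In endoderm over neuron cells, where 18.6% of all genes tested rose, Phlda3, Eda2r and Ccng1 rose, at 3.70-fold, 5.26-fold and 1.90-fold. The list was picked with values known and is given as values only.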
